A study of Mus musculus with 51 samples.

Results

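The enzymes that write and erase DNA methylation were followed in blood-forming cells of the mouse through 9 genes: the DNA methyltransferases Dnmt1, Dnmt3a and Dnmt3b, the maintenance cofactor Uhrf1, the methylcytosine dioxygenases Tet1, Tet2 and Tet3, and the isocitrate dehydrogenases Idh1 and Idh2. All 23 probe sets annotated to these genes were taken, of 45037 probe sets tested, which name 18193 genes. Dnmt1 had 3 probe sets, Dnmt3a 5, Dnmt3b 2, Uhrf1 2, Tet1 4, Tet2 2, Tet3 1, Idh1 2 and Idh2 2. The rule that picks these probe sets uses the gene names and no measured value.

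The study sorted 4 populations by flow cytometry from the whole bone marrow of mice, either wild type or carrying an Mll-AF9 knock-in, which places the leukaemia fusion of Mll and Af9 at the endogenous Mll locus. The populations were haematopoietic stem cells (HSC), common lymphoid progenitors (CLP), common myeloid progenitors (CMP) and granulocyte-macrophage progenitors (GMP), and the stated aim was to find genes that differ between each Mll-AF9 population and its wild-type counterpart. Wild-type groups held 5 HSC, 8 CLP, 5 CMP and 5 GMP replicates, and Mll-AF9 groups held 5 HSC, 7 CLP, 4 CMP and 4 GMP replicates, 43 in all on 51 arrays, because 8 CMP replicates were run a second time and their runs were averaged. The sources used here do not give strain, age, sex or zygosity. They also do not say that each replicate was a different animal, and the p-values therefore reflect sample-to-sample spread that could be technical. Each level below is the log2 of the deposited RMA intensity of 1 probe set, and levels of different probe sets are not compared with each other. A level of 4.62 was taken as background, the 95th percentile of the mean levels of 129 probe sets for receptor and keratin-associated genes not used in marrow.

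DNA methylation places a methyl group on cytosine, mostly where it precedes guanine (CpG). Dnmt3a and Dnmt3b write new marks, and Dnmt1, brought to newly copied DNA by Uhrf1, restores the marks on the daughter strand after replication. Tet enzymes oxidise methylcytosine and so start its removal, using oxygen, iron and 2-oxoglutarate, which Idh1 (in the cytosol) and Idh2 (in mitochondria) make from isocitrate. In blood, loss of Dnmt3a or Tet2 enlarges the stem cell pool, and mutant Idh1 or Idh2 makes 2-hydroxyglutarate, which inhibits the Tet enzymes.

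The promoters of 4 members are shown as background, and a link between them and the levels below was not tested. Tet1 and Dnmt3b were among the genes that differed between populations, and their windows are printed with each CpG, the substrate of these enzymes, in capitals. Dnmt1 and Uhrf1 act at replication, and their windows are printed with matches to an E2F motif, that of a family which drives S-phase genes, in capitals. Each window runs from 250 bases before to 50 after a RefSeq start on GRCm38.p6, for Tet1 chr10:62887275-62887574 (minus strand), for Dnmt3b chr2:153649199-153649498 (plus), for Dnmt1 chr9:20952574-20952873 (minus) and for Uhrf1 chr17:56304063-56304362 (plus), and all are written 5′ to 3′ along the gene.
Tet1: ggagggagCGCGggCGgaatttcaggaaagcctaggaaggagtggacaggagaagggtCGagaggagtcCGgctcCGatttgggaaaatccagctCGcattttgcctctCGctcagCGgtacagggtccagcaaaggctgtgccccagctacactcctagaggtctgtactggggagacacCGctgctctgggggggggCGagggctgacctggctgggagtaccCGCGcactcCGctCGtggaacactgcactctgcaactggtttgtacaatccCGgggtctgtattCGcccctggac
Dnmt3b: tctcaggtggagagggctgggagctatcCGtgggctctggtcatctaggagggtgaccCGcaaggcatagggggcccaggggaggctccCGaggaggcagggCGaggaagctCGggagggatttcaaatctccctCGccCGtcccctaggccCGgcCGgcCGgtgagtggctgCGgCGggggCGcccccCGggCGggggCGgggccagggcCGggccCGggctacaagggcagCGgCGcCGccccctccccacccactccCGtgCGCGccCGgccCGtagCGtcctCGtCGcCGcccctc
Dnmt1: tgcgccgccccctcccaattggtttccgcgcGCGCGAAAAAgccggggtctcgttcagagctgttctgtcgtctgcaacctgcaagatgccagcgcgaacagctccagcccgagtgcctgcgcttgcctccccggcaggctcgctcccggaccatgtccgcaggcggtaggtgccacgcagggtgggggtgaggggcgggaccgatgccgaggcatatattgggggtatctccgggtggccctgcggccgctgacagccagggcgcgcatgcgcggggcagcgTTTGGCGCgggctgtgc
Uhrf1: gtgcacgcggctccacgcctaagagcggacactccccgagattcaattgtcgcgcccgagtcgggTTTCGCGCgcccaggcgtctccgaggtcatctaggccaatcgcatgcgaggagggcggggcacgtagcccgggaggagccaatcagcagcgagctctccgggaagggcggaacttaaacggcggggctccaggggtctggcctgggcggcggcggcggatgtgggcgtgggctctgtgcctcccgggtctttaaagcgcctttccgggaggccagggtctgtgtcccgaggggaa

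The 9 genes matched 15 such RefSeq windows, some overlapping. Of these, 14 held more CpGs than the median of 7 over all 32851 windows of this length. The Tet1 window held 17 CpGs and the Dnmt3b window 30, and the range over the 15 was 2 to 57, the highest in Tet2. The letters TTTNNCGC, or GCGNNAAA on the other strand, occurred 3 times in the printed Dnmt1 window, where 2 of the matches overlap in 1 run of capitals, and once in the printed Uhrf1 window. The other Uhrf1 window held 1 match, the other 2 Dnmt1 windows held 0, and 5.17% of all windows held any. A match is a run of letters and not a measured binding site, and the arrays do not show which start is used.

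In both genotypes, 8 of the 9 members fell into 3 patterns across populations, and Tet3 was near background. By their brightest probe sets, Dnmt3a, Dnmt3b and Tet1 had higher levels in HSC and CLP than in CMP and GMP, although Tet1 in Mll-AF9 CLP against CMP did not pass (0.99 ± 0.37, limma adjusted p = 0.0867). Other probe sets of these genes differed in part, as given below. Idh1 was higher in GMP than in each other population, and Idh2 and Tet2, by their brightest probe sets, were higher in GMP than in CMP. Dnmt1 and Uhrf1, by their brightest probe sets, passed the test in no pair of populations. No member passed the test between Mll-AF9 and wild type in any population.

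**Figure D1:**
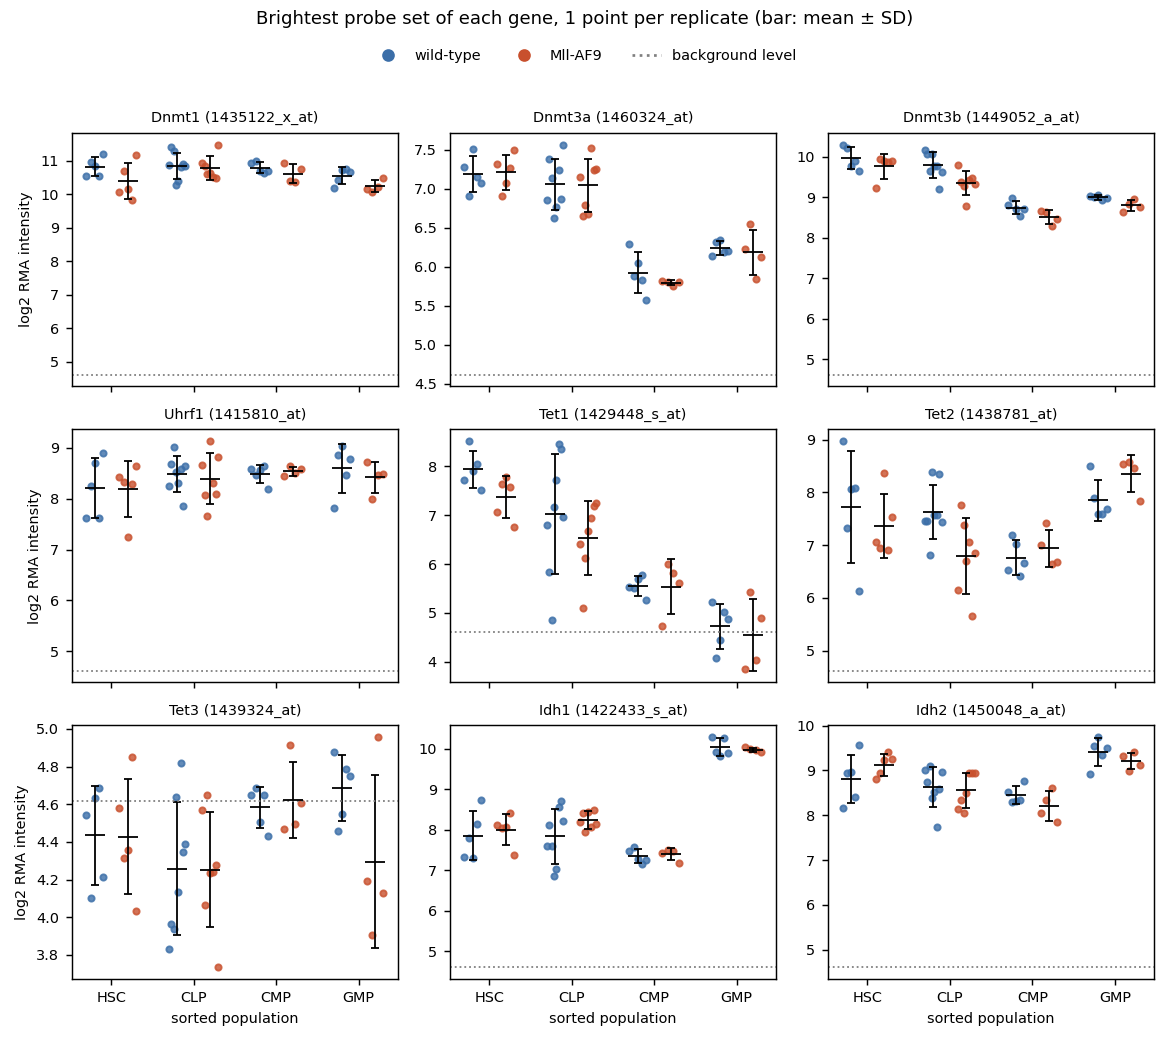
Level (log2 RMA intensity) of the brightest probe set of each of the 9 genes in the 4 sorted populations, 1 point per replicate, wild type in blue and Mll-AF9 in orange, with mean and SD in black and the background level of 4.62 dotted. Dnmt3a, Dnmt3b and Tet1 step down from HSC and CLP to CMP and GMP, Idh1 is highest in GMP, and the 2 genotypes lie close together.

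Populations were compared within a genotype with limma on 4 group means, adjusting p over all probe sets by Benjamini-Hochberg at 0.05. Over the 6 wild-type pairs, 42 of the 138 tests on member probe sets passed (30.4%), beside 22.2% of all tests in the same fit. Over the 6 Mll-AF9 pairs, 35 of 138 passed (25.4%), beside 15.2% of all. The share of all probe sets called is given beside each count below, higher and then lower in the population named first. In wild-type CMP against HSC, 8 of 23 member probe sets passed (16.6% of all), 0 higher (8.75%) and 8 lower (7.81%). In GMP against HSC, 9 passed (34.1%), 3 higher (20.4%) and 6 lower (13.7%). In GMP against CMP, 7 passed (26.5%), 6 higher (15.3%) and 1 lower (11.2%). In CLP against CMP, 6 passed (17.2%), 5 higher (8.12%) and 1 lower (9.06%), and in CLP against GMP, 12 passed (38.6%), 6 higher (14.8%) and 6 lower (23.8%). Between CLP and HSC, 0 of 23 passed in limma, while 5 had an unadjusted p under 0.05, and 0.273% of all probe sets passed, 0.173% higher and 0.0999% lower.

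In Mll-AF9 CMP against HSC, 8 of 23 passed (13.7% of all), 0 higher (7.54%) and 8 lower (6.14%). In GMP against HSC, 9 passed (25.4%), 3 higher (14.4%) and 6 lower (11.1%). In GMP against CMP, 5 passed (15.6%), 4 higher (8.06%) and 1 lower (7.56%). In CLP against CMP, 3 passed (12.5%), 3 higher (6.15%) and 0 lower (6.35%), and in CLP against GMP, 10 passed (22.7%), 6 higher (9.69%) and 4 lower (13%). Between CLP and HSC, 0 of 23 passed in limma, while 6 had an unadjusted p under 0.05, and 1.5% of all probe sets passed, 0.95% higher and 0.551% lower.

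The labelled populations were checked against their markers. The 7 GMP markers averaged between 11.81 and 12.14 in wild-type GMP replicates and at most 10.22 in any other wild-type replicate, and Klf1, an erythroid factor of CMP, had a level of 11.38 ± 0.22 in wild-type CMP (SD, n = 5). Wild-type CLP replicate 1 and the 7 Mll-AF9 CLP samples carry a source name of CMP. Their title was followed. Klf1 in Mll-AF9 CLP had a level of 7.79 ± 1.08 (SD, n = 7), against 11.31 ± 0.18 (n = 4) in Mll-AF9 CMP, while Il7r, which defines CLP, was 9.49 ± 1.36 and 4.15 ± 0.38. In wild-type CLP replicate 1 Klf1 was 6.91 and Il7r 8.42. The pre-B genes Vpreb1 and Igll1 were 8.04 and 7.33 there, but in Mll-AF9 CLP they were 4.63 ± 0.45 and 5.26 ± 0.84, close to the 4.05 ± 0.32 and 4.78 ± 0.15 of Mll-AF9 CMP. The B-lineage factor Ebf1 was at or below background in both CLP groups. Wild-type GMP replicate 1 had the largest 3′ minus 5′ signal difference of the GMP arrays, a sign of RNA quality, at 4.70 against 2.59 to 4.14 in the other 4. All 20 Mll-AF9 replicates carried Xist and background levels of Y-linked genes, as a female does, whereas wild-type groups were mixed, so sex is not balanced between genotypes.

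Tet1, the Tet enzyme best known from embryonic stem cells, varied most among the members. In wild-type HSC its brightest probe set (1429448_s_at) read 7.71, 8.52, 7.89, 8.04 and 7.50. Wild-type CMP read 5.53, 5.51, 5.69, 5.78 and 5.26, and wild-type GMP 5.22, 4.07, 4.45, 5.01 and 4.89. Every HSC replicate lay above every CMP and GMP replicate, and 2 of the 5 GMP replicates lay below background. The 8 wild-type CLP replicates ran from 4.86 through a median of 7.06 to 8.46, so that 3 of the 8 lay within the HSC range and the lowest within the GMP range.

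Wild-type Tet1 was thus lower in GMP than in HSC by a log2 difference of -3.20 ± 0.46 (SE; 95% interval -4.15 to -2.26), a 9.22-fold difference (limma adjusted p = 7.5e-06), and lower in CMP than in HSC by -2.38 ± 0.46 (5.21-fold, adjusted p = 0.000508). CLP exceeded GMP by 2.29 ± 0.41 (4.9-fold, adjusted p = 0.000114) and CMP by 1.47 ± 0.41 (adjusted p = 0.0132). The difference between CLP and HSC, -0.91 ± 0.41, did not pass (adjusted p = 0.438). The range of Tet1's 8 group means, 3.38 on the log2 scale, lay at the 98.5th percentile of all probe sets. In Mll-AF9 cells the same probe set read 7.07, 7.63, 7.78, 7.58 and 6.76 in HSC and 3.85, 5.42, 4.05 and 4.90 in GMP. These groups again did not overlap, and since the GMP mean of 4.56 lay below background, the difference is given as at least 5.56-fold (fitted -2.81 ± 0.39, adjusted p = 1.3e-05), with GMP replicates below background counted at it.

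A second Tet1 probe set (1455425_at) gave the same order of HSC and CLP above CMP above GMP in the group means of both genotypes. In Mll-AF9, however, CMP passed the test against neither HSC nor CLP on this probe set. In wild type it read 7.19, 6.73, 6.99, 6.97 and 6.74 in HSC, 5.92, 5.94, 5.64, 5.20 and 5.02 in CMP, and 3.47, 4.32, 4.48, 4.19 and 4.01 in GMP. These 3 groups did not overlap, and all 5 GMP replicates lay below background, so that HSC was at least 4.95-fold and CLP at least 5.36-fold above GMP (adjusted p = 2e-07 and 1.79e-08). Here CMP also exceeded GMP, at least 1.90-fold in wild type (adjusted p = 0.00113) and at least 1.60-fold in Mll-AF9 (adjusted p = 0.0377). The Mll-AF9 call was lost when any of 6 replicates was left out, namely GMP replicate 1, 2, 3 or 4 or CMP replicate 1 or 3, the highest adjusted p being 0.154 without CMP replicate 3 (-0.92), and it was lost with the first CMP runs alone (-0.87, adjusted p = 0.154). The other Tet1 probe sets carried little signal, 1419896_at lying above background in 2 of 8 groups and 1419897_at in none.

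**Figure D2:**
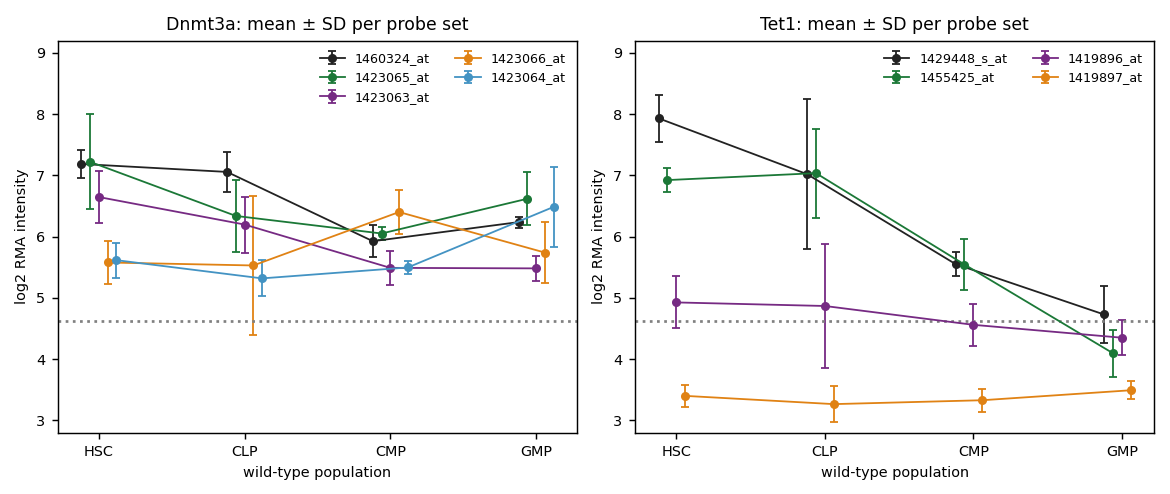
Mean and SD of each Dnmt3a probe set (left) and each Tet1 probe set (right) over wild-type replicates of the 4 populations, in log2 RMA intensity, with the background level of 4.62 dotted. The 2 brighter Tet1 probe sets fall from HSC and CLP to GMP, whereas the 5 Dnmt3a probe sets do not share 1 course.

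Dnmt3b, a de novo methyltransferase, was also higher in HSC and CLP than in CMP and GMP on its brightest probe set, but with a smaller span and with the lowest mean in CMP. Its brightest probe set (1449052_a_at) read 10.30, 10.21, 9.77, 9.89 and 9.65 in wild-type HSC, 8.80, 8.97, 8.70, 8.53 and 8.71 in CMP, and 9.04, 8.99, 9.05, 8.92 and 8.97 in GMP. The HSC replicates lay above all of the myeloid replicates, and the GMP replicates lay close together. Wild-type CLP ran from 9.19 through 9.77 to 10.16, also above every CMP and GMP replicate.

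Against wild-type HSC, Dnmt3b was lower by -1.22 ± 0.17 in CMP (2.33-fold, limma adjusted p = 7.36e-06) and by -0.97 ± 0.17 in GMP (1.96-fold, adjusted p = 7.79e-05). CLP exceeded CMP by 1.05 ± 0.15 (adjusted p = 1.25e-05) and GMP by 0.80 ± 0.15 (adjusted p = 0.0002), and CLP and HSC differed by -0.18 ± 0.15 (adjusted p = 0.748). In Mll-AF9 the differences from HSC were -1.25 ± 0.19 in CMP and -0.97 ± 0.19 in GMP (adjusted p = 8.69e-05 and 0.000581). Mll-AF9 CLP exceeded CMP by 0.85 ± 0.18 (adjusted p = 0.00205) and GMP by 0.56 ± 0.18 (adjusted p = 0.0249). The last call was lost without Mll-AF9 GMP replicate 1 (0.51, adjusted p = 0.0867) or replicate 4 (0.55, adjusted p = 0.0614). The 3′ minus 5′ signal difference, a sign of RNA quality, also differed between these groups, at 4.18 ± 0.53 (SD, n = 7) in CLP and 3.01 ± 0.20 (n = 4) in GMP, and adjusting for it gave 0.53 (adjusted p = 0.234). The other probe set (1418351_a_at) was also lower in wild-type CMP (-1.10 ± 0.22) and GMP (-1.29 ± 0.22) than in HSC, with adjusted p of 0.00101 and 9.34e-05. Its lowest mean was in GMP, 6.57 in wild type and 6.13 in Mll-AF9. It was not called in CLP against CMP in either genotype, nor in Mll-AF9 CMP against HSC. Its call in Mll-AF9 CLP against GMP (0.73, adjusted p = 0.0281) was lost in 8 of 31 alternatives.

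Dnmt3a, the de novo enzyme most often mutated in human blood, gave the same pattern on 2 of its 5 probe sets in wild type. In Mll-AF9 only the brightest gave all of it. The brightest (1460324_at) read 7.28, 6.91, 7.52, 7.15 and 7.08 in wild-type HSC, 6.29, 5.89, 6.04, 5.83 and 5.58 in CMP, and 6.14, 6.32, 6.35, 6.19 and 6.20 in GMP. The lowest HSC replicate stood above the highest CMP and GMP replicates. CLP ran from 6.63 through 7.01 to 7.57, within or near the HSC range.

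Wild-type Dnmt3a was lower than in HSC by -1.26 ± 0.19 in CMP (2.4-fold, limma adjusted p = 2.86e-05) and -0.95 ± 0.19 in GMP (1.93-fold, adjusted p = 0.000404). In Mll-AF9 the values were -1.42 ± 0.21 and -1.03 ± 0.21 (adjusted p = 8.14e-05 and 0.00102). CLP exceeded CMP by 1.13 ± 0.17 in wild type and 1.25 ± 0.20 in Mll-AF9 (adjusted p = 2.51e-05 and 0.000138). CLP exceeded GMP by 0.82 ± 0.17 and 0.86 ± 0.20 (adjusted p = 0.000553 and 0.00323). The probe set 1423063_at was likewise lower than in HSC in wild-type CMP and GMP, by -1.16 ± 0.24 and -1.17 ± 0.24 (adjusted p = 0.00106 and 0.000514). It was higher in wild-type CLP than in CMP by 0.71 ± 0.22 (adjusted p = 0.0224), which did not hold without CMP replicate 5 (0.59, adjusted p = 0.0958), with the second CMP runs alone (0.47, adjusted p = 0.191) or after adjustment for the 3′ minus 5′ signal (0.53, adjusted p = 0.116). In Mll-AF9 it was lower than in HSC by -1.34 in CMP and -1.54 in GMP (adjusted p = 0.00237 and 0.000327). Mll-AF9 CLP was not called against CMP, and its call against GMP (0.79, adjusted p = 0.0362) was lost in 9 of 31 alternatives.

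The remaining Dnmt3a probe sets did not follow it. The probe set 1423065_at was lower in wild-type CMP than in HSC (-1.17 ± 0.33, limma adjusted p = 0.0131; -0.94 and 0.054 without HSC replicate 1), but its GMP level of 6.62 ± 0.44 (SD, n = 5) was not called against HSC. The probe set 1423064_at was higher in wild-type GMP, at 7.64, 6.18, 6.12, 6.24 and 6.24, than in HSC, at 5.37, 5.61, 5.78, 5.31 and 6.00. The groups did not overlap, but 1 GMP library, replicate 1, stood far above the other 4, and the difference of 0.87 ± 0.24 (adjusted p = 0.00633) was 0.58 without it (adjusted p = 0.0184). The same probe set was higher in wild-type GMP than in CMP by 0.99 ± 0.24 (adjusted p = 0.00311). It was lower in wild-type CLP than in GMP by -1.17 ± 0.21 (adjusted p = 0.000148), opposite to the brightest probe set. Without GMP replicate 1 these differences were 0.70 and -0.88 (adjusted p = 0.00746 and 0.000292). In Mll-AF9 it passed in no pair. The probe set 1423066_at passed in no pair, and over the 43 replicates it correlated with the brightest at r = -0.33, as did 1423064_at at r = -0.13 and 1423063_at at r = 0.68. Probe sets of a gene can read different transcripts or parts of one, which the files used here do not resolve, so a direction for Dnmt3a holds for the probe sets named.

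The average of the HSC markers moved with Dnmt3a, Dnmt3b and Tet1. The 5 measured HSC markers averaged 7.59 to 8.40 in wild-type HSC replicates, 6.69 to 8.67 in CLP, 5.38 to 5.82 in CMP and 4.91 to 5.45 in GMP. Slamf1 did not follow this average, with a mean at or below background in wild-type HSC, CLP and GMP and above it in CMP. Procr, a receptor of stem cells, was 8.56 ± 0.86 (SD, n = 5) in wild-type HSC, 8.58 ± 0.71 (n = 8) in CLP and 4.44 ± 0.25 (n = 5) in CMP, where it lay below background. Dntt, the template-free polymerase of lymphoid progenitors, was 12.30 ± 0.25 in CLP and 11.59 ± 0.48 in HSC, so each of these sorts held markers used for the other. The part of this overlap in the like levels of the 3 genes in HSC and CLP was not tested. The 4 mast cell and basophil markers were also high in wild-type CLP, averaging 7.77 to 11.81 per replicate against 5.07 to 5.62 in CMP, and their part in these results was not tested either. In sorted bulk samples, fewer cells of a type and less RNA per cell cannot be told apart.

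Tet2, an eraser often lost in myeloid disease, was not ordered like Tet1. Its brightest probe set (1438781_at) read 8.50, 7.89, 7.59, 7.58 and 7.68 in wild-type GMP and 6.52, 7.18, 7.03, 6.42 and 6.66 in CMP. Every GMP replicate lay above every CMP replicate, by 1.09 ± 0.36 in the mean (2.13-fold, limma adjusted p = 0.0287). That call did not hold without GMP replicate 1 (0.92, adjusted p = 0.0836), CMP replicate 1 (1.03, 0.0598), CMP replicate 4 (1.00, 0.0685) or CMP replicate 5 (1.06, 0.0572).

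In Mll-AF9, Tet2 read 8.54, 8.58, 8.46 and 7.84 in GMP and 7.01, 7.41, 6.64 and 6.68 in CMP. The groups again did not overlap, and the difference of 1.42 ± 0.38 (2.67-fold, limma adjusted p = 0.0111) was kept with each replicate left out. Mll-AF9 CLP, from 5.65 through 6.85 to 7.75, lay below every GMP replicate, by -1.56 ± 0.33 (2.95-fold, adjusted p = 0.00154). Adjusting for the 3′ minus 5′ signal, which differed between these groups as given for Dnmt3b, gave -1.45 (adjusted p = 0.0706). Wild-type CLP and GMP differed by -0.22 ± 0.33 (adjusted p = 0.621). Wild-type HSC scattered from 6.14 to 8.98 and was not called against any population for Tet2. Mll-AF9 GMP exceeded HSC by 0.99 ± 0.36 (adjusted p = 0.0448), a call lost in 14 of the 32 alternatives tried. These included leaving out GMP replicate 1, 2 or 3, CMP replicate 1 or 4, CLP replicate 5 or 7, or HSC replicate 1, 2, 4 or 5, with differences from 0.88 to 1.03 and adjusted p from 0.0502 to 0.11. The dimmer Tet2 probe set (1455300_at) passed in no pair.

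Tet3, the third eraser, was near the background level everywhere. Its single probe set had group means from 4.25 to 4.69, above 4.62 in 2 of 8 groups. Wild-type CLP was called lower than GMP by -0.43 ± 0.16 (limma adjusted p = 0.0355), with CLP below background, which leaves a difference of at least 1.03-fold. The call was lost in 11 of 35 alternatives, which included leaving out GMP replicate 1, 4 or 5 or CLP replicate 1, 2, 3 or 5, with adjusted p between 0.0544 and 0.0893.

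**Figure D3:**
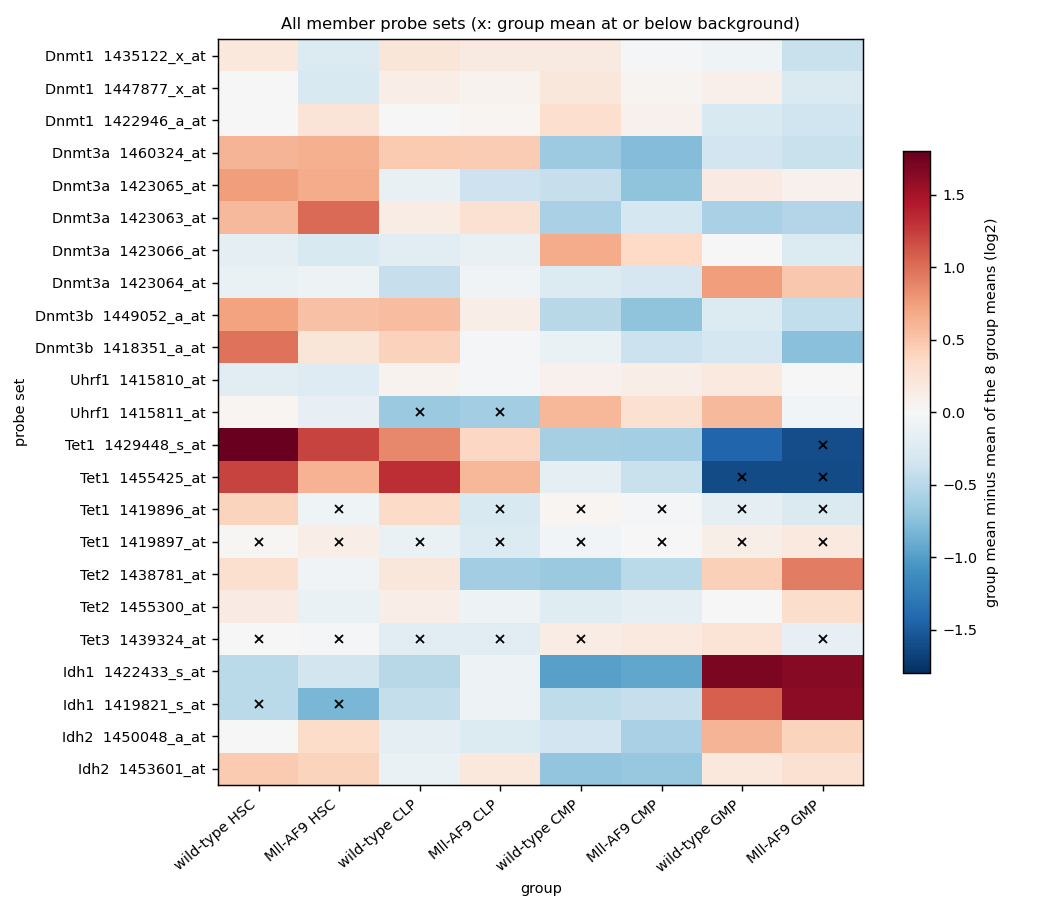
Mean level of all 23 member probe sets (rows) in the 8 groups (columns), each as the difference from that probe set's mean over the 8 group means (log2, red above and blue below), with a cross where the group mean is at or below background. The 2 brighter Tet1 probe sets, the brightest Dnmt3a probe set and both Dnmt3b probe sets are red in HSC, and both Idh1 probe sets are red in GMP, in both genotypes.

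Idh1, the cytosolic source of 2-oxoglutarate, was the member that marked GMP. Its brightest probe set (1422433_s_at) read 10.29, 9.92, 9.82, 10.26 and 9.88 in wild-type GMP, 7.48, 7.58, 7.29, 7.16 and 7.26 in CMP, and 7.32, 7.79, 7.30, 8.13 and 8.73 in HSC. The lowest GMP replicate was more than 1 log2 unit above the highest replicate of any other wild-type population, CLP included (6.85 through 7.85 to 8.71). In Mll-AF9, GMP read 10.03, 9.99, 9.96 and 9.91 and CMP 7.43, 7.50, 7.47 and 7.19, again far apart.

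Wild-type Idh1 was higher in GMP than in CMP by 2.68 ± 0.31 (6.41-fold, limma adjusted p = 3.43e-07), than in HSC by 2.18 ± 0.31 (4.54-fold, adjusted p = 6.31e-06) and than in CLP by 2.20 ± 0.28 (4.59-fold, adjusted p = 1.18e-06). The Mll-AF9 values were 2.57 ± 0.20, 1.97 ± 0.19 and 1.74 ± 0.18 (adjusted p = 5.4e-09, 1.13e-07 and 2.85e-07). The second probe set (1419821_s_at) was also higher in GMP, by at least 2.43-fold over wild-type HSC and at least 3.93-fold over Mll-AF9 HSC, whose means lay below background (adjusted p = 0.00916 and 0.000702). Mll-AF9 CLP also exceeded Mll-AF9 CMP by 0.84 ± 0.18 (adjusted p = 0.00251). Mll-AF9 CMP was called lower than HSC by -0.60 ± 0.19 (adjusted p = 0.0393), a call lost in 14 of 32 alternatives. Among them were leaving out GMP replicate 1, 3 or 4 or any 1 of CMP or HSC replicates 1 to 4, with differences from -0.63 to -0.50 and adjusted p up to 0.138, without CMP replicate 4. All 7 GMP markers moved with Idh1, being higher in wild-type GMP than in CMP, HSC and CLP.

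Idh2, the mitochondrial enzyme, differed in the same direction by less on its brightest probe set. Its brightest probe set (1450048_a_at) read 8.92, 9.54, 9.75, 9.34 and 9.50 in wild-type GMP and 8.52, 8.31, 8.31, 8.34 and 8.77 in CMP. The groups did not overlap, and GMP was higher by 0.96 ± 0.25 (1.94-fold, limma adjusted p = 0.00533). GMP also exceeded wild-type CLP, by 0.78 ± 0.22 (adjusted p = 0.0076), while its difference from HSC, 0.60 ± 0.25, did not pass (adjusted p = 0.062). In Mll-AF9 the excess over CMP was 1.00 ± 0.23 (adjusted p = 0.00417), and CMP was lower than HSC by -0.91 ± 0.22 (adjusted p = 0.00618). Mll-AF9 CLP was lower than GMP by -0.65 ± 0.21 (adjusted p = 0.0251), a call lost without GMP replicate 1 (-0.62, adjusted p = 0.0753) or 3 (-0.59, adjusted p = 0.091) and at -0.30 (adjusted p = 0.584) after adjustment for the 3′ minus 5′ signal. The second probe set (1453601_at) was higher in wild-type GMP than CMP by 0.90 ± 0.25 (adjusted p = 0.00819) and was lower in wild-type CMP than HSC by -1.18 ± 0.25 (adjusted p = 0.00112), a difference that the brightest did not show in wild type (-0.36 ± 0.25, adjusted p = 0.408). It was not called in Mll-AF9 GMP against CMP, nor in CLP against GMP in either genotype. Its highest means were in HSC, 6.81 in wild type and 6.74 in Mll-AF9, against 6.53 and 6.61 in GMP.

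Dnmt1, the maintenance methyltransferase, had bright probe sets with little spread between populations. The brightest (1435122_x_at) read 10.54, 10.96, 10.85, 10.54 and 11.20 in wild-type HSC, 10.94, 10.99, 10.69, 10.62 and 10.71 in CMP, and 10.18, 10.42, 10.73, 10.76 and 10.67 in GMP. The groups overlapped throughout, and 0 of 12 pairs passed in limma, with 1 at an unadjusted p under 0.05, Mll-AF9 CLP above GMP by 0.55 ± 0.22 (adjusted p = 0.0697). Wild-type CMP differed from HSC by -0.03 ± 0.18, with a 95% interval from -0.40 to 0.35. The other Dnmt1 probe sets also passed in no pair. The _x_at suffix marks probes that may also bind other transcripts.

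Uhrf1, the partner of Dnmt1, also passed in no pair on its brightest probe set (1415810_at), and 0 of 12 had an unadjusted p under 0.05. Wild-type HSC read 7.61, 8.26, 8.70, 7.63 and 8.89, a wider scatter than the 8.58, 8.47, 8.57, 8.64 and 8.19 of CMP. The 2 HSC replicates lowest in Uhrf1, 1 and 4, had the lowest and the middle level of the replication list, 8.01 and 8.79, and replicate 5, highest in Uhrf1, had 9.33. That list held 19 measured genes of replication and division. It averaged 8.81 ± 0.57 (SD, n = 5) in wild-type HSC and 9.48 ± 0.04 (n = 5) in CMP. Of its 19 genes, 6 were called higher in wild-type CMP than in HSC and 0 lower, beside 8.75% and 7.81% of all probe sets. In Mll-AF9 12 of 19 were called higher in CMP than in HSC and 0 lower, beside 7.54% and 6.14% of all probe sets. Counted as this list is, by the brightest probe set per gene, 20.7% and 17.8% of all genes were called in either direction. Over those same pairs the Uhrf1 differences were 0.27 ± 0.26 and 0.35 ± 0.28 (limma adjusted p = 0.589 and 0.522), and neither was called.

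The dimmer Uhrf1 probe set (1415811_at) was lower in wild-type CLP, from 4.06 through 4.43 to 5.40, than in GMP, at 5.36, 5.21, 5.94, 6.44 and 6.19. The ranges overlapped slightly, and with the CLP mean below background GMP was at least 2.04-fold higher (limma adjusted p = 0.0064). CMP was at least 2.05-fold higher than CLP (adjusted p = 0.0122), but this probe set was sensitive to the CMP run. In all 8 replicates run again it was lower in the second run, by a mean of -1.21 ± 0.71 (SD), and with the second runs alone the difference between CLP and CMP was -0.71 (adjusted p = 0.263).

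The repeat CMP runs showed how far a level can move on the same sample. Over the 8 replicates, the brightest probe sets of Dnmt1, Dnmt3a, Dnmt3b, Tet1 and Idh1 shifted by 0.08 ± 0.41, 0.20 ± 0.30, 0.26 ± 0.23, 0.11 ± 0.72 and 0.21 ± 0.21 (mean and SD). These means were smaller than any CMP difference called for them, but single replicates moved further, for Tet1 from -0.99 to 0.98. Idh1 in Mll-AF9 CMP against HSC lost its call with the second runs alone (-0.46, limma adjusted p = 0.167). The brightest probe sets of Tet2, Idh2, Uhrf1 and Tet3 shifted by 0.35 ± 0.34, -0.41 ± 0.14, 0.51 ± 0.34 and -0.53 ± 0.45. In all 8 second runs the Dnmt3a probe set 1423066_at was lower (mean -1.19 ± 0.47), 1423063_at was higher (0.53 ± 0.21) and the Dnmt3b probe set 1418351_a_at was lower (-0.50 ± 0.11). CMP values carry more decimals than the rest and may have been processed apart, so that a shift of CMP as a whole cannot be told apart from a population difference. The differences of pairs without CMP do not use CMP values, but their p-values do, through the spread shared by the 4 groups. With the first CMP runs alone, Tet2 in Mll-AF9 GMP against HSC (limma adjusted p = 0.0529) lost its call. Tet3 in wild-type CLP against GMP (0.0523) lost its call in the same way.

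Between genotypes, each Mll-AF9 population was compared with its wild-type counterpart alone. In limma 0 of 23 member probe sets passed in any population, while the share of all probe sets that passed was 0.167% for GMP, 0.184% for CMP, 0.215% for CLP and 0.00666% for HSC. In the same order, 4, 1, 3 and 2 of 23 had an unadjusted p under 0.05, beside 8.34%, 6.06%, 8.28% and 5.87% of all probe sets. The median difference of the 23, Mll-AF9 minus wild type, was -0.10 for GMP, -0.06 for CMP, -0.07 for CLP and -0.12 for HSC, beside -0.01, 0.00, 0.02 and 0.01 over all probe sets. For the 9 brightest probe sets, 32 of 36 intervals (95%) lay within a 2-fold difference either way, and their outer bounds were -1.46 and 0.98.

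**Figure D4:**
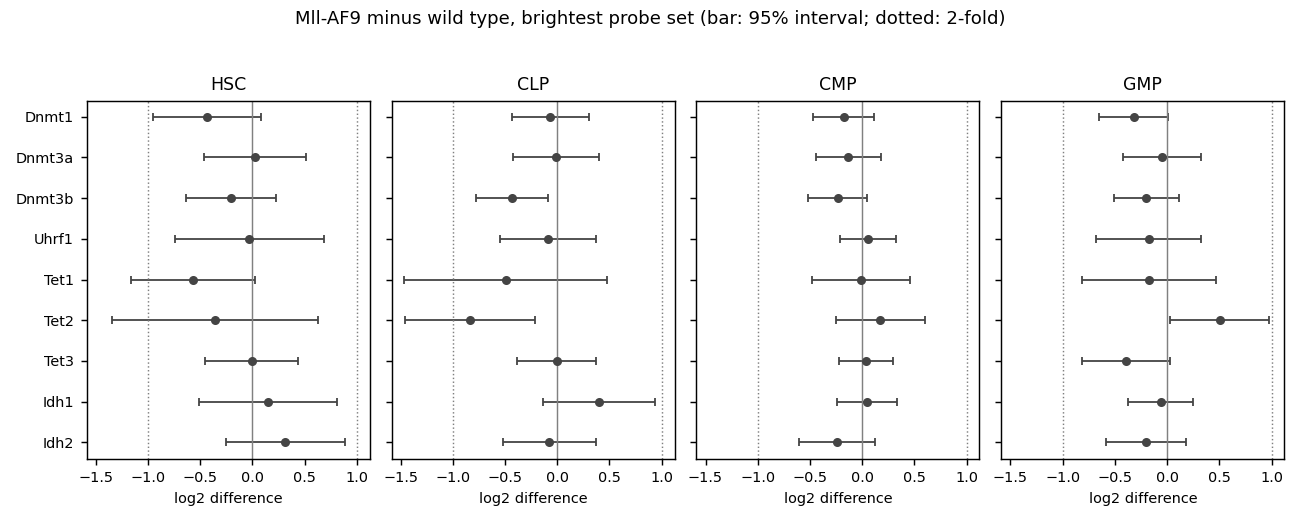
Difference in log2 level, Mll-AF9 minus wild type, of the brightest probe set of each gene in each population, with its 95% interval, a solid line at 0 and dotted lines at a 2-fold difference. None passed the adjusted test, and the interval crosses a dotted line for Tet1 and Tet2 in HSC and CLP.

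Dnmt3b in HSC was the single case without overlap between genotypes. Its probe set 1418351_a_at read 8.13, 7.59, 7.99, 7.89 and 7.68 in wild-type HSC and 6.79, 6.78, 7.39, 7.19 and 7.37 in Mll-AF9 HSC. All 5 Mll-AF9 replicates lay below all 5 wild-type replicates, which was so for 1 of 23 member probe sets in HSC and for 1.13% of all. The difference of -0.75 ± 0.23 (95% interval -1.25 to -0.25) had an adjusted p of 0.737 in limma, fitted over all probe sets. The brightest Dnmt3b probe set differed by -0.21 ± 0.20 there, with 4 of 5 Mll-AF9 replicates between 9.87 and 9.93. Both Dnmt3b probe sets were lower in Mll-AF9 in all 4 populations, by -0.20 to -0.43 on the brightest and -0.27 to -0.75 on the other, and none of the 8 differences passed. In CLP the brightest differed by -0.43 ± 0.17 (adjusted p = 0.494).

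Tet2 had differences of opposite sign in GMP and CLP. Mll-AF9 GMP was higher by 0.50 ± 0.22 (95% interval 0.03 to 0.98, limma adjusted p = 0.572; 0.67 and 0.106 without wild-type GMP replicate 1). Mll-AF9 CLP was lower by -0.83 ± 0.30 (interval -1.46 to -0.21, adjusted p = 0.457). Other measures differed between the CLP groups, and their part in the CLP genotype differences was not tested. The 7 CLP markers averaged 6.60 to 9.10 per replicate in wild type and 6.59 to 8.05 in Mll-AF9, with Vpreb1 at 8.17 ± 1.54 (SD, n = 8) and 4.63 ± 0.45 (n = 7), at background in Mll-AF9. The 5 neutrophil markers averaged 4.03 to 11.48 and 7.09 to 12.21, and the 6 T and NK cell markers 4.26 to 5.70 and 5.16 to 6.17, with Gzma at 4.30 ± 0.50 and 7.76 ± 0.89. The 3′ minus 5′ difference was 3.69 ± 0.21 and 4.18 ± 0.53. The groups overlapped in both populations. The difference between these 2 genotype effects, -1.34 ± 0.49, had the smallest p of the 138 such tests on members and a limma adjusted p of 0.45. Of those 138 tests 0 passed in limma and 2 had an unadjusted p under 0.05, beside 0.0418% of all such tests passing (0.127% for CLP minus HSC, 0.0511% for CLP minus CMP, 0.0622% for CLP minus GMP and 0.0111% for GMP minus HSC).

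Tet1 was lower in Mll-AF9 HSC by -0.57 ± 0.28 on its brightest probe set and by -0.60 ± 0.25 on 1455425_at (limma adjusted p = 0.848 and 0.842), and in CLP by -0.49 ± 0.46 and -0.74 ± 0.35 (adjusted p = 0.786 and 0.597). In GMP, where both probe sets were near or below background, the values were -0.17 ± 0.30 and 0.00 ± 0.20. Dnmt1 was lower by -0.43 ± 0.24 in HSC and -0.32 ± 0.15 in GMP (adjusted p = 0.854 and 0.605). Dnmt3a on its brightest probe set had differences between -0.13 and 0.03 over the 4 populations, and Idh1 between -0.06 and 0.40.

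The wider machinery was read from 44 further genes of methylation, demethylation, methyl-CpG binding, methyl donor supply and 2-oxoglutarate supply, 38 of which were measured, 1 probe set each. None was called between genotypes in any population, and the list's median difference was 0.01 for GMP, -0.03 for CMP, 0.09 for CLP and 0.03 for HSC. Between populations in wild type, 5 were called higher and 4 lower in CMP than HSC (23.7% of the list, beside 20.7% of all genes by their brightest probe set), and 6 and 9 in GMP than HSC (39.5% beside 37.2%). The counts were 4 and 8 in GMP against CMP (31.6% beside 30.4%), 5 and 6 in CLP against CMP (28.9% beside 21.9%), and 9 and 7 in CLP against GMP (42.1% beside 42.6%). In Mll-AF9, in the same order, they were 4 and 5 (23.7% beside 17.8%), 6 and 7 (34.2% beside 28.4%), 2 and 8 (26.3% beside 18.3%), 6 and 5 (28.9% beside 16.9%), and 6 and 5 (28.9% beside 25.8%). Between CLP and HSC, 1 was called in wild type, Idh3b, lower in CLP by -0.63 ± 0.14 (limma adjusted p = 0.0439). In Mll-AF9 2 were called, Idh3g higher in CLP by 0.88 ± 0.19 and Ung lower by -0.87 ± 0.21 (adjusted p = 0.0241 and 0.036). Of all probe sets, 0.273% in wild type and 1.5% in Mll-AF9 were called in this pair.

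Cxxc5, which binds unmethylated CpG through a CXXC domain, had the largest difference of the list. Its level was 9.93 ± 0.28 (SD, n = 5) in wild-type HSC, 9.43 ± 0.42 (n = 8) in CLP, 7.58 ± 0.44 (n = 5) in CMP and 6.23 ± 0.14 (n = 5) in GMP, the order seen for Tet1. GMP was lower than HSC by -3.70 ± 0.23 in wild type and -3.81 ± 0.35 in Mll-AF9 (limma adjusted p = 2.22e-11 and 5e-08). Ogt, the GlcNAc transferase that binds Tet proteins, was lower in GMP than HSC by -2.80 ± 0.33 in wild type and -1.65 ± 0.18 in Mll-AF9 (adjusted p = 5.6e-07 and 6.98e-07). Zbtb4, which binds methylated DNA, was lower by -1.99 ± 0.36 and -2.31 ± 0.34 (adjusted p = 0.000124 and 1.94e-05). Its wild-type GMP mean of 4.49 ± 0.90 (SD, n = 5) lay below background and its Mll-AF9 GMP mean of 4.65 just above, so these sizes are uncertain.

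Other genes of the list differed between GMP and CMP in wild type. Gadd45a, a stress gene linked to demethylation, was 6.76 ± 0.65 (SD, n = 5) in CMP and 4.49 ± 0.62 (n = 5) in GMP, which is below background (limma adjusted p = 8.83e-06). Its relative Gadd45b was higher in GMP by 1.86 ± 0.57 (adjusted p = 0.0179). Apobec3, a cytidine deaminase, was higher by 1.07 ± 0.20 (adjusted p = 0.000342). Idh3a, a subunit of the NAD-dependent isocitrate dehydrogenase, had its highest mean in CMP, exceeding HSC by 1.22 ± 0.29 (adjusted p = 0.00424) and CLP by 1.06 ± 0.26 (adjusted p = 0.00526), unlike Idh1 and Idh2.

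Genes with the most similar course over the 43 replicates were ranked by Pearson's r among 11420 other genes, as a description in which replicates share populations. Idh1 was closest to Vat1 (r = 0.942), Tifab (0.928) and Prtn3 (0.918), the last a granule protease. Dnmt3b was closest to Plcg1 (0.917), Il18 (0.892) and Flt3 (0.891), and Dnmt3a to Macroh2a1 (0.903), Glis2 (0.900) and Zfp467 (0.900). Tet1 was closest to Gcnt2 (0.902), Taok1 (0.894) and Plod2 (0.866). Uhrf1 was closest to Brca1 (0.736), Clspn (0.719) and Urb2 (0.678). For Dnmt1, Tet2, Tet3 and Idh2 the highest r was 0.681, 0.755, 0.672 and 0.795.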

How the data were processed

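RNA of sorted cells was amplified by Affymetrix 2-cycle labelling and read on 51 arrays, per the labels' protocols. The deposited values were RMA intensities on a linear scale, per the submitters' processing notes, and their log2 was taken here. No read depth applies, so precision rests on how many arrays each group has. Of 45101 probe sets 64 controls were left out. Probe sets were named through the platform annotation, with 34945 naming 1 gene and 10092 several or none, and 34741 symbols were updated through RefSeq tables.

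The 2 runs of 8 CMP replicates were averaged. Genotype was tested with limma 3.58.1 in R 4.3.3 (lmFit, eBayes with trend) on the 2 groups of a population, population pairs on the 4 groups of a genotype, and differences of the genotype effect on all 8, with Benjamini-Hochberg adjustment over 45037 probe sets at 0.05. The code was tested on simulated data. Where the dimmer group of a member lay below background, its replicates were set to at least background and a lower bound of the fold is given.

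Members, gene lists and alternatives were chosen with earlier results of these data known. Per member the brightest probe set (by its mean across 43 replicates) is given in full and the others where they differ from it. Of the methylation list, up to 6 genes per comparison could be named, those with the largest called differences whose brighter group was above background. For likeness, the 3 genes with the highest r were taken. Alternatives covered normalisation, covariates, CMP runs, probe set choice, the replicate block and leaving out each replicate. Transcripts of the Mll-AF9 fusion were not analysed here.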

Additional observations from a re-analysis of the deposited data

Results flagged for a closer look

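In 14 of 184 sets of 4 to 8 replicates (23 probe sets in 8 groups), 1 replicate lay far from the others by Dixon's criterion, which chance alone gives in about 1 of 20 sets (9.2 of 184). Wild-type GMP replicate 1 gave 5 of the 14. It read 6.90 for Dnmt1 (1422946_a_at; others 8.36 to 8.73), 7.64 for Dnmt3a (1423064_at; others 6.12 to 6.24) and 7.09 for Dnmt3b (1418351_a_at; others 6.37 to 6.50). It also read 4.07 for Tet2 (1455300_at; others 5.26 to 5.69) and 4.46 for Idh1 (1419821_s_at; others 6.24 to 6.88).

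The writers gave 5 further cases. For Dnmt3a these were 5.01 in wild-type CMP replicate 5 (1423063_at; others 5.54 to 5.67), and 7.93 in wild-type CLP replicate 1 and 6.45 in Mll-AF9 CLP replicate 1 (1423066_at; others 4.14 to 5.89 and 5.12 to 5.68). Dnmt3b read 9.22 in Mll-AF9 HSC replicate 1 (1449052_a_at; others 9.87 to 9.93), and Uhrf1 read 7.25 in Mll-AF9 HSC replicate 3 (1415810_at; others 8.29 to 8.64).

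The other 4 were in erasers and Idh1. Tet1 read 4.72 in Mll-AF9 CLP replicate 3 (1455425_at; others 6.01 to 6.90) and 5.17 in wild-type CMP replicate 5 (1419896_at; others 4.36 to 4.49). Tet2 read 7.84 in Mll-AF9 GMP replicate 4 (1438781_at; others 8.46 to 8.58), and Idh1 read 2.64 in Mll-AF9 CLP replicate 3 (1419821_s_at; others 5.01 to 5.72).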

How the results depend on the processing

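Of the 77 called population differences of members, 61 kept their call in every alternative tried, 16 lost it in at least 1, and 0 reversed. The count of called wild-type differences, 42, was 19 with 1 probe set per gene, and the Mll-AF9 count, 35, was 22, because fewer probe sets are tested by construction. On that base 29654 and 21486 of 109158 tests on all genes passed. With array weights the member counts were 52 and 53. Tests passed over all probe sets also rose, from 59988 and 41190 to 79146 and 65668 of 270222, and the cause was not tested. Leaving out 1 replicate moved the member counts between 40 (without CMP replicate 5) and 45 (without HSC replicate 5) in wild type. In Mll-AF9 they moved between 28 (without GMP replicate 1) and 39 (without CLP replicate 3). Over all probe sets, these fits passed 53693, 62380, 33798 and 46323 tests, in this order. Genotype differences and differences of the genotype effect stayed at 0 called in limma under every alternative. Replicate numbers were not shown to pair the samples, and an absence of pairing was not shown either. Between groups, the mean r of replicates with the same number ran from -0.10 (wild-type and Mll-AF9 HSC) to 0.14 (wild-type CMP and GMP). With the replicate block the member counts were 44 in wild type, 39 in Mll-AF9 and 0 between genotypes. Over all probe sets, 63010 tests in wild type and 36376 in Mll-AF9 passed with the block. Under it 5 calls were lost: Tet1 (1429448_s_at) in wild-type CLP against CMP (0.93, adjusted p = 0.0981), Tet1 (1455425_at) in Mll-AF9 GMP against CMP (-1.20, 0.0737), and in Mll-AF9 CLP against GMP Dnmt3a (1423063_at; 0.88, 0.0561) and Dnmt3b (1449052_a_at and 1418351_a_at; 0.52, 0.115 and 0.43, 0.206). Levels near background, as for Tet3, limit what these arrays can show.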
